A study of Rattus norvegicus with 9 samples.

Results

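The genes described here carry the names of the protein families that dock, prime and fuse synaptic vesicles at the nerve terminal. They were chosen by name from the gene column of the arrays: the syntaxins (Stx) and their binding proteins (Stxbp), the synaptobrevins or VAMPs (Vamp), the SNAP family (Snap, without the Snapc genes), the complexins (Cplx), the RIM proteins (Rims), the Munc13 proteins (Unc13), the synaptotagmins (Syt, with the related Sytl genes that the name rule also takes), the SV2 proteins (Sv2), the synapsins (Syn1 to Syn3) and synaptophysin (Syp). That rule found 67 of the 35561 genes or other named features on the array, and no measured value entered it. Of these, 63 stood above background well enough to be tested, among 25808 features tested in all. The name rule also takes SNAREs and partners of other membrane steps, 24 of the 67 genes and 22 of the 63 tested. They are counted with the release machinery below.

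The arrays measured total RNA of rat cortical neurons, dissociated from unborn pups. They were kept in Neurobasal with a B27 or NS21 supplement and used after 11 to 15 days in culture. Every culture had been held for 48 h in tetrodotoxin (TTX), a blocker of voltage-gated sodium channels that stops action potentials. In the TTX group (3 arrays) RNA was taken at that point. In the other groups the toxin was removed with 3 washes of medium and RNA was taken 15 min (3 arrays) or 45 min (3 arrays) later. No culture without TTX is among these groups, so each difference is measured against silenced neurons. The series title places the study among work on the rapid induction of Arc and other early genes by returning activity. The comparison made here asks whether the transcripts of the release machinery moved in the same minutes.

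An action potential opens calcium channels at the terminal, and a vesicle that is already docked and primed fuses within a fraction of a millisecond. Fusion is driven by the SNARE complex, in which synaptobrevin on the vesicle zips together with syntaxin and SNAP-25 on the plasma membrane. Munc13 proteins and their partners assemble that complex, RIM proteins hold primed vesicles near the calcium channels, complexins clamp and then aid fusion, and synaptotagmins sense calcium. Synapsins tether the reserve pool of vesicles, and SV2 proteins and synaptophysin are abundant proteins of the vesicle membrane. Vesicles made before the stimulus are used first, and the proteins of this machinery are long-lived.

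The cultures expressed most of the machinery at every time. Of the 67 genes, 61 stood well above background on all 9 arrays. Sv2c and Syt10 did so on 7 arrays each, Sytl1 on 5, Syt15 on 2, Cplx4 on 1 and Sytl4 on 0. The last 4 genes were not above background on all 3 arrays of any group and were left out of the tests. No probe of a tested gene was saturated. Cplx4, a complexin known from the retina, read above background only on 1 array at 15 min after washout. The signal of one probe cannot be set against that of another as an amount of RNA, so no order of abundance among the genes is given.

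The 9 arrays had 72.4 to 77.9% of their probes well above background. All 9 neuron markers on the array stood above background on all arrays, as did all 3 excitatory and all 8 inhibitory neuron markers. So did 6 of 7 astrocyte markers, 6 of 6 oligodendrocyte markers, 6 of 7 endothelial and fibroblast markers and 2 of 7 microglia markers. The microglia markers Aif1 and Cx3cr1 were above background on no array. In RNA of a whole culture, fewer cells of a type and less RNA per cell cannot be told apart. The labels do not say that the arrays of a group came from separate cultures, so p-values measure only the spread between these samples, which may be technical.

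Each gene was read through a probe of 60 bases, and 12 of the 67 genes had several probes. A few probe sequences are shown to mark the bases that probes share. The probes of the paralogs Syt3 and Syt9 share 9 bases in a row. One Syt1 probe shares 32 bases with a probe made for a Syt1 splice variant. Capitals mark the longest run shared with the named partner: Syt3 with Syt9, and Syt1 with the variant probe.
Syt3: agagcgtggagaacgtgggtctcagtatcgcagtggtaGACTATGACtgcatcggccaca
Syt9: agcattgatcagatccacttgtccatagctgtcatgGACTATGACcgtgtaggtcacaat
Syt1: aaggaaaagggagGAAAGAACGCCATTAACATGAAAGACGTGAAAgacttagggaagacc
Positions are in the rn3 build that the files use. The Syt3 probe spans chr1:94955310-94955460 and the Syt9 probe chr1:164972197-164974433 (both plus strand), both longer than the probe itself, so each crosses a splice junction. The Syt1 probe is at chr7:47410236-47410295 (minus strand). Over 3061 pairs of probes from different genes of the machinery, the longest shared run was 12 bases (Unc13a with Syn3) and the median 6. Reads of one gene through another gene's probe were not tested beyond these shared runs.

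No gene of the machinery differed past the threshold in any of the 3 comparisons. The threshold was an adjusted p of 0.05 from limma's moderated test, with Benjamini-Hochberg adjustment over all 25808 features. At 15 min, 0 of 63 were called, against 0.0232% of all features (6 higher, 0 lower). At 45 min, 0 of 63 were called, against 0.182% of all features called higher and 0.0194% called lower. Between 15 and 45 min, 0 of 63 were called, against 0.12% called higher and 0.0116% lower. With backgrounds this low a count of 0 among 63 genes is near the background and says little by itself. With each gene read by its brightest probe, 1, 0 and 3 of the 63 passed an unadjusted p of 0.05 in the same order. The shares of all features were 3.49%, 6.44% and 6.67%. Without replicate 1 of the 45 min group these counts were 1, 9 and 6 of 63, and none passed after adjustment. The shares of all features were 5.16%, 13.2% and 14.1%. Without that array the 45 min and TTX groups shared no slide, so slide and group cannot be told apart in that comparison. The smallest adjusted p of any of the genes was 0.992 at 15 min, 0.767 at 45 min and 0.742 between the times.

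The intervals tell how large a difference these arrays leave room for. A log2 difference of 1 is a 2-fold difference. The 95% interval lay wholly within 1 log2 unit of 0 for 58 of 63 genes at 15 min, for 57 at 45 min and for 60 between the times. Over all features the shares were 87.4%, 86.0% and 84.8%. In all 3 comparisons this held for 57 genes, and the other 6 were Sv2b, Sv2c, Syt4, Syt8, Syt10 and Syt12. Within 0.5 log2 unit, the intervals of 34, 27 and 30 genes were contained, against 36.9%, 34.6% and 34.9% of all features. Differences smaller than that were mostly not resolved with 3 arrays a group.

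**Figure D1:**
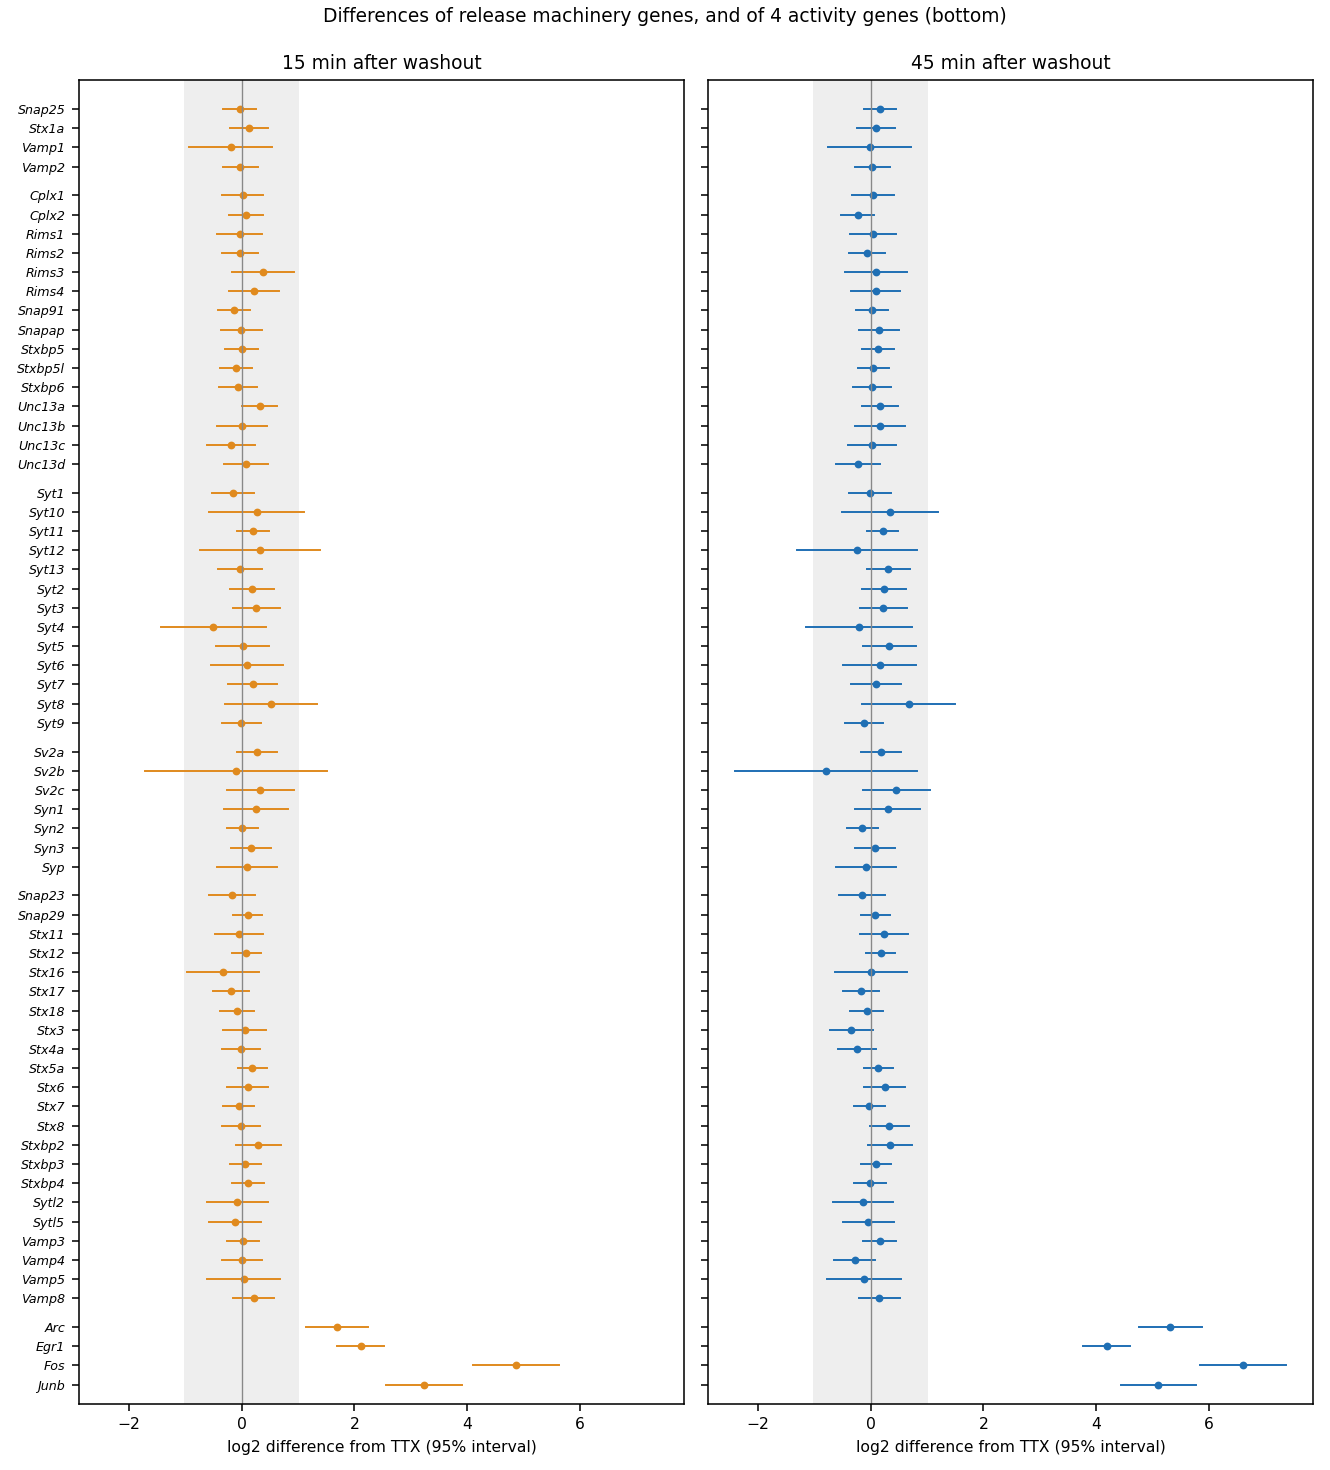
Log2 difference from TTX (horizontal axis) at 15 min (left) and 45 min (right) after washout for 61 of the 63 tested release machinery genes and, in the lowest block, Arc, Egr1, Fos and Junb. Points are fitted differences, lines are 95% intervals, and the grey band spans 1 log2 unit on either side of 0; 56 of these intervals at 15 min and 55 at 45 min lie inside it, while the 4 activity genes lie outside.

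The same RNA carried a strong activity response, which shows what the arrays could register. Fos, an early transcription factor, read -3.06, -2.92 and -2.52 on the log2 scale (minus the array's 75th percentile) in TTX, 1.58, 2.72 and 1.80 at 15 min and from 3.18 to 4.14 at 45 min, with no overlap between groups. It rose by 4.87 ± 0.34 log2 units (SE, 3 arrays a group) at 15 min (limma adjusted p = 0.00176) and by 6.61 at 45 min. Egr1 rose by 2.11 and 4.19 and Junb by 3.24 and 5.11 at the same times. Arc, a cytoskeletal protein of synapses, differed by 1.69 at 15 min (limma adjusted p = 0.187) and rose by 5.32 at 45 min. Npas4 was not well above background on any TTX array and was at least 19.7-fold higher at 15 min and at least 200-fold higher at 45 min. The TTX group shares only slide 1 with either later group, and slide 2 held only TTX arrays. The same holds for the release machinery comparisons with TTX. Slides were told apart by their barcodes. With slide as a fixed term none of these 5 genes passed at 15 min (Fos 5.16, limma adjusted p = 0.147). At 15 min Junb also lost its call without any 1 of the TTX arrays or without replicate 2 at 15 min (limma adjusted p 0.0506 to 0.08), Egr1 without replicate 2 of either group (0.0651 and 0.0563), and Junb and Npas4 with normexp background correction (0.0679 and 0.194). All 5 passed at 45 min under every setting tried. Against these sizes, release machinery genes read by their brightest probe differed less. The largest difference was 0.51 at 15 min (Syt8) and -0.79 at 45 min (Sv2b). Dimmer probes went further, with -0.81 at 15 min (Sv2b) and 0.86 at 45 min (Stxbp5l).

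The core SNAREs form the fusion complex itself. The 5 genes had a median log2 difference of -0.03 at 15 min, 0.03 at 45 min and 0.06 between the times, and 0 of 5 were called. Snap25 (chr3:124799349-124799408 in rn3, plus strand) encodes the plasma membrane SNARE that gives 2 helices to the complex. Its scaled log2 signal was 4.27, 4.27 and 4.25 in TTX, 4.08, 4.26 and 4.33 at 15 min and 4.26, 4.47 and 4.55 at 45 min. The groups overlapped, and the difference was -0.04 ± 0.13 (SE) at 15 min (95% interval -0.33 to 0.25) and 0.16 ± 0.13 at 45 min (-0.13 to 0.45).

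Vamp2, the main synaptobrevin of forebrain vesicles (chr10:55865439-55865498, plus strand), read 3.53, 3.71 and 3.51 in TTX, 3.50, 3.63 and 3.54 at 15 min and 3.38, 3.74 and 3.72 at 45 min. All 9 values lay within 0.36 log2 units. A second Vamp2 probe (chr10:55865141-55865200) gave differences of 0.03 and 0.06 where the first gave -0.03 and 0.03. The remaining probe, designed on a Vamp2 splice form named Vamp2B, was above background on 0 arrays. Vamp1, the synaptobrevin of brainstem and motor terminals, was noisier (chr4:161583528-161583587, plus strand). It read -3.66, -3.49 and -3.42 in TTX, -3.57, -3.05 and -4.53 at 15 min and -3.88, -3.43 and -3.31 at 45 min, and replicate 3 at 15 min was the lowest of the 9. Its differences were -0.19 ± 0.33 and -0.01 ± 0.33 (SE).

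Stx1a encodes a plasma membrane syntaxin of nerve terminals. It read 0.89, 1.14 and 1.27 in TTX, 1.02, 1.43 and 1.24 at 15 min and 1.19, 1.14 and 1.25 at 45 min. The groups overlapped, with differences of 0.13 ± 0.15 and 0.09 ± 0.15 (SE) and 95% intervals of -0.21 to 0.47 and -0.25 to 0.43. Its probe lies on the minus strand of the unplaced part of chromosome 12 in rn3.

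**Figure D2:**
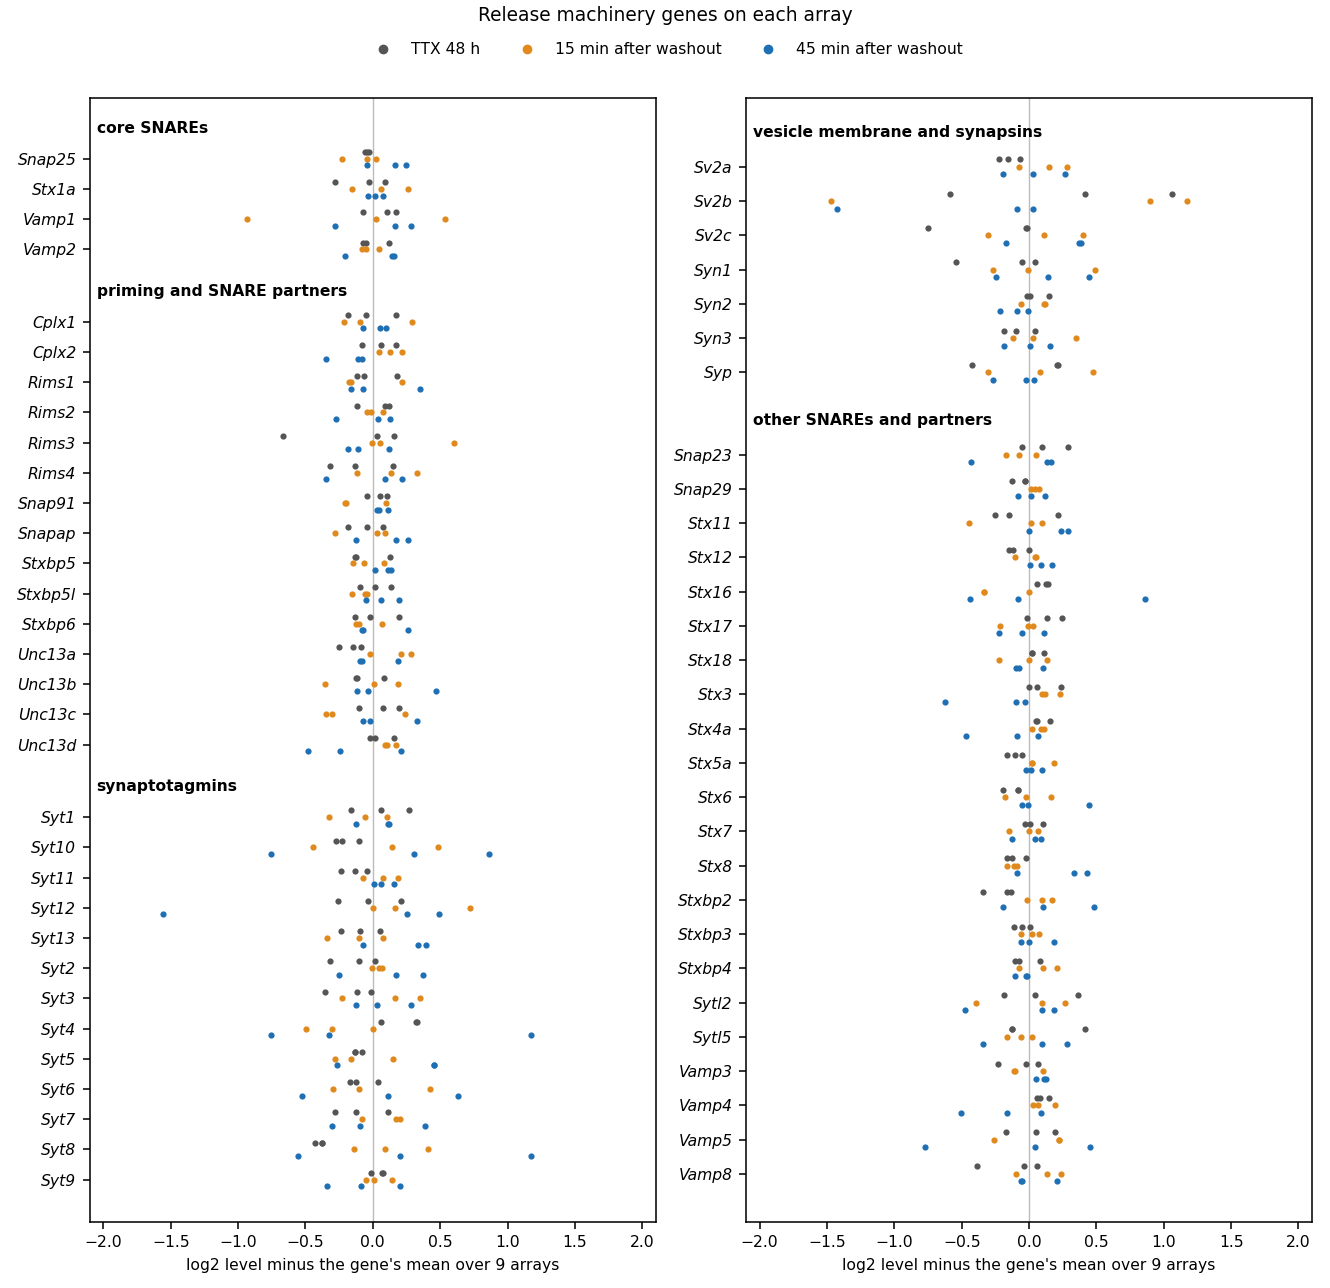
Scaled log2 level of 61 tested release machinery genes on each of the 9 arrays, minus that gene's mean over the arrays (horizontal axis), in 5 role groups; 1 point is 1 array, coloured by group. The 9 points of 49 genes span less than 1 log2 unit, and the widest spans belong to Sv2b, Syt12, Syt4 and Syt8.

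Genes that prime the vesicle or regulate the SNAREs were also called in no comparison (0 of 16 tested, median differences 0.00, 0.05 and 0.08). Unc13a encodes Munc13-1, which opens syntaxin and without which forebrain vesicles hardly prime (chr16:18828768-18828827, minus strand). It read -3.27, -3.37 and -3.21 in TTX, -2.84, -2.91 and -3.14 at 15 min and -2.93, -3.22 and -3.20 at 45 min. Every array at 15 min read higher than the highest TTX array, whereas the 45 min arrays overlapped TTX. The difference at 15 min was 0.32 ± 0.14 (SE, 1.25-fold, 95% interval 0.01 to 0.63), and its limma adjusted p was 0.992. Among the brightest probes of the machinery, it was the only one at an unadjusted p under 0.05 there. A dimmer Sv2b probe, tested on its own, also passed at 15 min (-0.81, limma unadjusted p = 0.0137). The relatives of Unc13a differed by 0.00 (Unc13b), -0.19 (Unc13c) and 0.07 (Unc13d) at 15 min. At 45 min they differed by 0.16, 0.02 and -0.22.

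Rims1, the RIM scaffold of the active zone (chr9:21092789-21092848, minus strand), read -3.87, -3.92 and -3.62 in TTX, -3.97, -3.58 and -3.96 at 15 min and -3.87, -3.96 and -3.45 at 45 min, which gives -0.04 ± 0.18 and 0.04 ± 0.18. Of the other RIM genes, Rims2 differed by -0.03 and -0.07, Rims4 by 0.22 and 0.09, and Rims3 by 0.37 ± 0.24 and 0.10 ± 0.24. The Rims3 difference at 15 min was among the 5 largest there and rested in part on a TTX replicate 1 of -5.70, the lowest of the 9 arrays.

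The complexins bind the assembled SNARE bundle. Cplx1 (chr14:1732341-1732400, plus strand) read -3.06, -2.71 and -2.93 in TTX, -2.98, -2.59 and -3.09 at 15 min and -2.96, -2.78 and -2.83 at 45 min, a pattern with full overlap (0.01 ± 0.16 and 0.05 ± 0.16, SE). Cplx2, the complexin of most excitatory terminals (chr17:16315831-16315890, minus strand), read -0.38, -0.27 and -0.52 in TTX, -0.39, -0.23 and -0.32 at 15 min and -0.52, -0.55 and -0.79 at 45 min. Its 3 arrays at 45 min lay below the lowest array of both other groups, replicate 1 by a narrow margin. The difference from 15 min was -0.31 ± 0.13 (SE, limma adjusted p = 0.742), and that from TTX -0.23 ± 0.13. Among the further partners, differences at 15 and 45 min were 0.00 and 0.13 for the tomosyn gene Stxbp5, -0.10 and 0.05 for its paralog Stxbp5l, -0.07 and 0.02 for Stxbp6 (amisyn), and -0.01 and 0.15 for Snapap, the older name of Snapin, a SNAP-25 binding protein. Snap91, which the name rule takes although it encodes the clathrin assembly protein AP180 and is no SNARE, differed by -0.14 and 0.02.

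A second Stxbp5l probe (chr11:65494543-65494602, plus strand) read otherwise than the first. It gave -5.59, -6.05 and -5.72 in TTX, -5.66, -6.06 and -6.14 at 15 min and -5.29, -4.34 and -5.16 at 45 min, so that all 45 min arrays lay above all others. The difference from TTX was 0.86 ± 0.26 (SE, limma adjusted p = 0.601 with each probe tested on its own), while the brighter probe gave 0.05. This probe was singled out after its values were seen.

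None of the 13 synaptotagmins was called, and their median differences were 0.18 at 15 min, 0.21 at 45 min and 0.06 between the times, beside 0.06, 0.05 and 0.00 over all features. Syt1, the calcium sensor of fast release in forebrain neurons, was read at chr7:47263766-47263825 (minus strand). It gave -1.58, -2.02 and -1.79 in TTX, -1.75, -2.18 and -1.91 at 15 min and -1.98, -1.74 and -1.73 at 45 min, a difference of -0.15 ± 0.17 and -0.02 ± 0.17 (SE). The probe whose sequence is shown above differed by -0.11 and -0.28, and the splice variant probe, printed in 10 spots on each array, by 0.06 and -0.07. None of the 3 Syt1 probes was called.

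Syt7, a slow sensor for asynchronous release and vesicle resupply (chr1:213090020-213090079, plus strand), read -4.21, -4.05 and -3.81 in TTX, -3.73, -3.75 and -4.01 at 15 min and -4.03, -3.55 and -4.24 at 45 min. The ranges overlapped (0.19 ± 0.20 and 0.09 ± 0.20, SE). Syt4 encodes a synaptotagmin whose first C2 domain does not bind calcium, and it is known as an activity-induced gene in neurons. It read 0.71, 0.71 and 0.44 in TTX, 0.08, -0.12 and 0.39 at 15 min and -0.38, 0.06 and 1.55 at 45 min. At 15 min all 3 arrays lay below TTX, and at 45 min the arrays reached from the lowest to the highest of all 9. The difference was -0.50 ± 0.42 (SE, 95% interval -1.44 to 0.43) at 15 min and -0.21 ± 0.42 (-1.14 to 0.73) at 45 min, so for Syt4 a 2-fold difference in the downward direction lies within both intervals.

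Syt8, which has been studied outside neurons, showed the largest difference of the machinery at 15 min among the brightest probes. It read -4.76, -4.76 and -4.81 in TTX, -3.97, -4.29 and -4.52 at 15 min and -4.93, -3.20 and -4.17 at 45 min. The 15 min arrays lay above TTX, and at 45 min replicate 1 lay below TTX while the other arrays lay above it. The differences were 0.51 ± 0.36 (SE, limma adjusted p = 0.992) and 0.67 ± 0.36 (limma adjusted p = 0.803). Syt12 differed by 0.32 at 15 min and -0.25 at 45 min, where replicate 3 read -3.46 and the other arrays of that group -1.65 and -1.42. Syt10 differed by 0.26 and 0.34 ± 0.38, with a 45 min group from -6.58 to -4.96.

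The other synaptotagmins moved less between arrays. Syt11, like Syt4, has a first C2 domain that does not bind calcium. It read -0.25, -0.15 and -0.35 in TTX, -0.03, 0.07 and -0.19 at 15 min and 0.04, -0.05 and -0.11 at 45 min. Its 45 min arrays all lay above TTX (0.21 ± 0.12, SE). Syt5 differed by 0.02 and 0.33, Syt13 by -0.03 and 0.31, Syt3 by 0.26 and 0.23, and Syt2, the fast sensor of hindbrain synapses, by 0.18 and 0.23. Syt6 differed by 0.09 and 0.16 and Syt9, another fast sensor, by -0.01 and -0.12. Between the times Syt13 differed by 0.34 ± 0.17 (SE, limma adjusted p = 0.768), among the 5 largest of that comparison by brightest probe.

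Vesicle membrane proteins and synapsins were called in no comparison either (0 of 7, medians 0.17, 0.07 and -0.09). Synapsin 1, a phosphoprotein that ties vesicles to each other (chrX:12560168-12560227, plus strand), read -1.70, -1.12 and -1.21 in TTX, -1.43, -0.67 and -1.17 at 15 min and -1.41, -1.02 and -0.71 at 45 min. Syn2 (chr4:151637722-151637781, plus strand) read 0.31, 0.45 and 0.28 in TTX, 0.42, 0.41 and 0.24 at 15 min and 0.09, 0.30 and 0.21 at 45 min. Both genes overlapped between groups, with differences of 0.26 ± 0.25 and 0.30 ± 0.25 for Syn1 and of 0.01 ± 0.12 and -0.15 ± 0.12 for Syn2 (SE). Syn3, the synapsin of early neurons, differed by 0.17 and 0.07.

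Synaptophysin (Syp, chrX:26944113-26944172, minus strand) read 2.79, 3.42 and 3.42 in TTX, 2.91, 3.69 and 3.30 at 15 min and 2.94, 3.25 and 3.19 at 45 min. Replicate 1 was the lowest array of each group. The differences were 0.08 ± 0.24 and -0.08 ± 0.24 (SE). Sv2a, the SV2 protein that binds the drug levetiracetam (chr2:190963164-190963223, plus strand), read 2.54, 2.61 and 2.69 in TTX, 2.91, 3.04 and 2.69 at 15 min and 3.03, 2.79 and 2.57 at 45 min, or 0.27 ± 0.15 and 0.18 ± 0.15 above TTX. Sv2c, which stood above background on 7 arrays, differed by 0.33 and 0.46 ± 0.26 with a signal near the limit of detection. It was above background on all 3 arrays only at 45 min, and entered the tests only through that group. That group also read highest, so the filter favours a positive difference at 45 min, and nothing is drawn from it.

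Sv2b stood apart from the rest of the machinery by its spread. Its brightest probe (chr1:130761141-130761200, minus strand) read 5.18, 4.54 and 3.54 in TTX, 5.29, 5.02 and 2.65 at 15 min and 4.03, 4.15 and 2.70 at 45 min. Replicate 3 was the lowest array in all groups, and the residual SD of 1.07 was the highest of the 63 genes. The difference at 45 min was -0.79 ± 0.71 (SE, 95% interval -2.40 to 0.82), which leaves room for a large change in this gene. A second Sv2b probe (chr1:130763481-130763540, minus strand) read -0.98, -1.23 and -1.37 in TTX, -1.80, -2.58 and -1.63 at 15 min and -1.63, -1.43 and -0.95 at 45 min. There replicate 3 was not the lowest at either time after washout, and the 15 min arrays lay below TTX (-0.81 ± 0.27, limma adjusted p = 0.973 with each probe tested on its own). The probes of Sv2b differed in direction between the times, with -0.69 for the first and 0.67 for the second.

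A term for the replicate number, added to the fit after the values were seen, described this pattern over the whole set. No gene of the machinery passed it at an adjusted p of 0.05 (0 of 63, against 0.372% of all features), and 7 of 63 had an unadjusted p under 0.05, against 12.5% of all features. Sv2b had the smallest limma adjusted p (0.0849), with replicate 3 lower than replicate 1 by a log2 difference of -1.87. It was followed by Sytl2, a Rab27 effector of secretory cells (0.161), Syp (0.278), Syt3 (0.301) and Syn1 (0.315). In those 4 genes replicate 1 read lower than the other numbers on average. What the replicate numbers share was not tested.

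**Figure D3:**
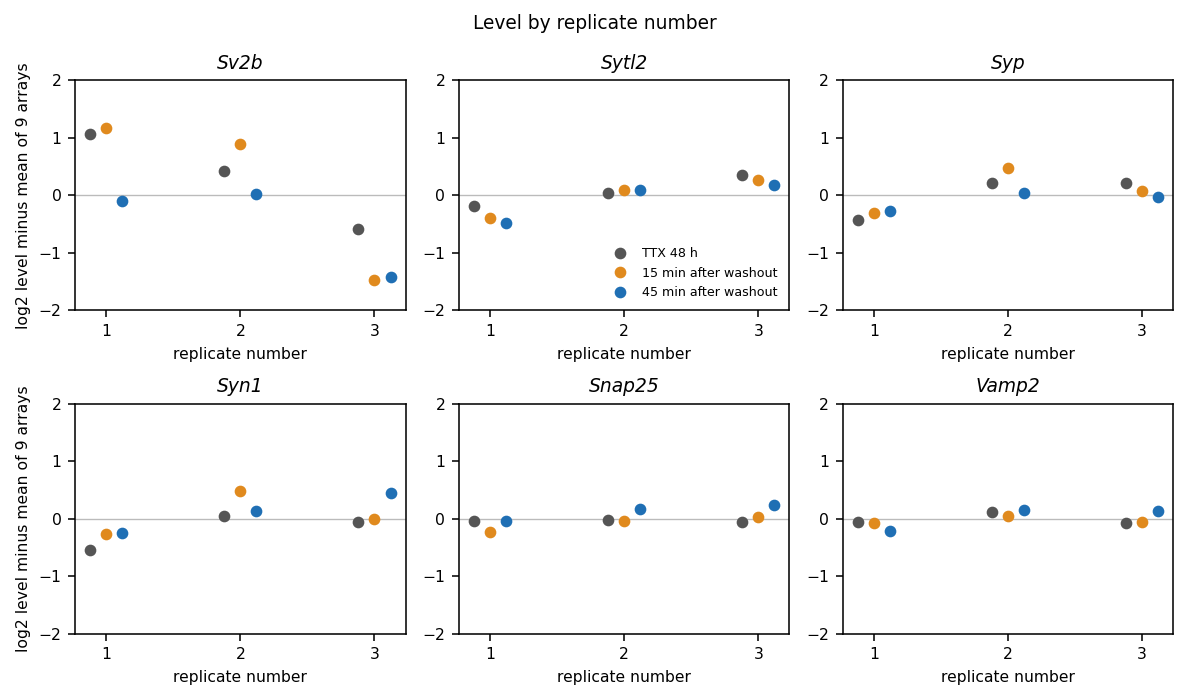
Scaled log2 level minus the gene's mean over 9 arrays (vertical axis) against replicate number (horizontal axis) for 6 release machinery genes, with 1 point per array coloured by group. Replicate 3 of Sv2b lies lowest in each group and replicate 1 of Syp and Syn1 lies lowest in each group, while Snap25 and Vamp2 stay close to their mean.

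The SNAREs and partners of other membrane steps (22 tested) served as the last group, with median differences of 0.01, 0.00 and 0.01 and no call. Stx3, a syntaxin of ribbon synapses and dendritic exocytosis, read -3.48, -3.43 and -3.25 in TTX, -3.25, -3.36 and -3.38 at 15 min and -4.11, -3.51 and -3.57 at 45 min. The 45 min arrays lay below all others, with the lowest value in replicate 1. The difference was -0.35 ± 0.17 from TTX and -0.40 ± 0.17 from 15 min (SE, limma adjusted p = 0.742). Stx8, an endosomal SNARE, read 3.22, 3.36 and 3.26 in TTX, 3.30, 3.23 and 3.27 at 15 min and 3.30, 3.72 and 3.82 at 45 min. It differed by 0.35 ± 0.15 between the times (limma adjusted p = 0.742). Without replicate 1 of the 45 min group it differed by 0.51 (limma adjusted p = 0.125). That was the smallest adjusted p of any gene of the machinery under any setting tried. Between the times Stx8 differed by 0.02 within slide 1, which held that replicate, and by 0.51 within slide 3. A part of the slide in this was not tested.

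Stx16, a Golgi SNARE, differed by -0.33 at 15 min and 0.00 at 45 min, where replicate 3 read -2.65 and the other arrays -3.95 and -3.60. Stxbp2, a syntaxin-binding protein of secretory blood and epithelial cells, differed by 0.29 and 0.34 ± 0.17. The endosomal SNARE genes Vamp4, Stx6 and Stx12 differed by 0.00, 0.11 and 0.08 at 15 min and by -0.29, 0.25 and 0.18 at 45 min. Snap29, a SNARE of autophagy and endosomes, had the smallest residual SD of the 63 genes (0.0684), with all 9 arrays between 3.58 and 3.83. Vamp3, Stx7 and Stx18 stayed within 0.36 log2 units over the 9 arrays.

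Where a gene had several probes, their directions sometimes differed. The 5 genes with the widest opposite-sign gaps in any comparison were Sv2b (1.36 log2 units between its probes), Vamp4 (0.59), Sytl2 (0.58), Stx6 (0.43) and Vamp1 (0.37). The first 3 and Vamp1 did so between the times, and Stx6 at 15 min. None of these probes was called, and which transcript forms each reads was not determined here.

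In 13 of the 63 genes the arrays of at least 1 pair of groups did not overlap. At 15 min, Snap29, Stx5a (Stx5 today), Stxbp2, Syt8 and Unc13a read higher than every TTX array, and Stx16 and Syt4 lower. That is 7 of 63, against 14.0% of all features (10.3% higher, 3.7% lower). At 45 min, Stx12, Stx5a, Stx6 and Syt11 read higher and Cplx2 and Stx3 lower, 6 of 63 against 11.7% (8.36% higher, 3.38% lower). Between the times, Stx8 read higher and Cplx2 and Stx3 lower, 3 of 63 against 8.11% (3.93% higher, 4.18% lower). These counts are near the background or slightly below it, and the gap was not tested.

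As a whole, the 63 genes were distributed much as the rest of the array. Their median differences were 0.02, 0.07 and 0.03 log2 units, and those of all features 0.06, 0.05 and 0.00. At 15 min, 37 of 63 differences were above 0, against 61.9% of all features. The counts at 45 min and between the times were 40 (60.0%) and 37 (49.6%). These directions depend on how arrays are scaled, since with no scaling only 12 of 63 were above 0 at 15 min and 8 at 45 min, and with another background correction 44 and 46. The spread between arrays of a group was small: the median residual SD was 0.195 log2 units, against 0.234 over all features, and 41 of 63 genes lay under that value.

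**Figure D4:**
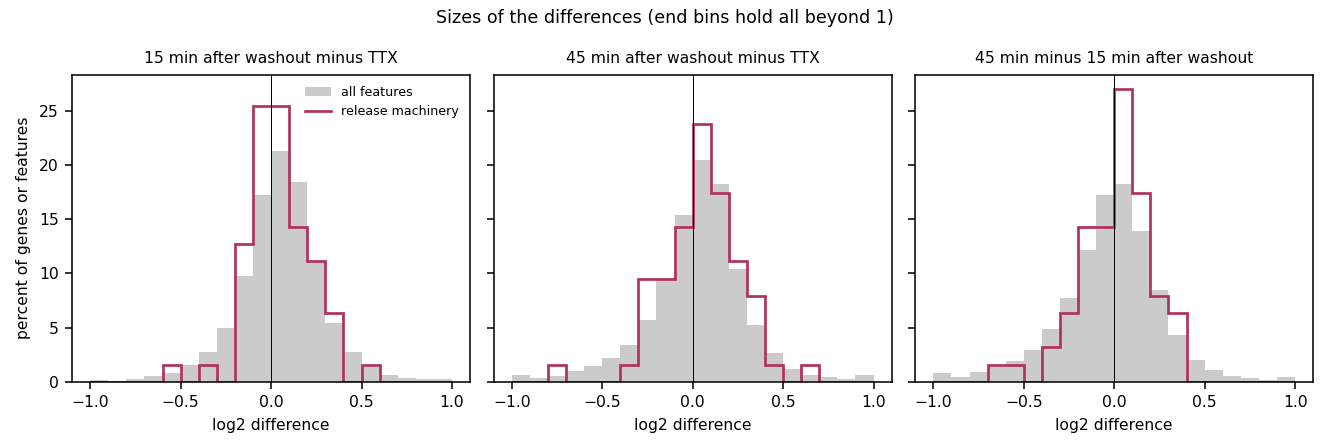
Share of genes or features (vertical axis, percent) by log2 difference (horizontal axis, bins of 0.1) in the 3 comparisons, for the 63 release machinery genes (line) and all 25808 features (grey). Both peak near 0, and the end bins hold all values beyond 1 log2 unit.

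Proteins that work beside the release machinery were looked at in the same way. Of 29 tested partners of the active zone and fusion, 0 were called in any comparison, with median differences of 0.07, 0.07 and -0.01. Rab3a, the vesicle GTPase that binds RIM, read 1.10, 1.58 and 1.67 in TTX, 1.31, 2.15 and 1.60 at 15 min and 1.60, 0.69 and 0.58 at 45 min. Replicates 2 and 3 of the 45 min group lay below all other arrays while replicate 1 did not (-0.73 ± 0.31 between the times, SE, limma adjusted p = 0.742). The large active zone scaffolds Bassoon (Bsn) and Piccolo (Pclo) differed by 0.33 and 0.31 at 15 min and by 0.48 and 0.44 at 45 min, with limma adjusted p of 0.63 and above. All 3 Bsn arrays of both later groups lay above TTX. Ppfia2, a liprin scaffold, differed by -0.37 at 15 min and Nrxn2, a neurexin of the presynaptic membrane, by 0.31 between the times.

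Of 20 tested genes for vesicle loading and other vesicle proteins, 0 were called. Synpr, a relative of synaptophysin, differed by -0.66 at 15 min, where replicate 1 read -0.69 and the other arrays of that group 0.73 and 0.92. The monoamine transporter gene Slc18a2 differed by 0.41 at 15 min and the glutamate transporter gene Slc17a8 by 0.42 at 45 min. Atp6v1b2, a subunit of the proton pump that energises loading, differed by 0.36 at 45 min, and Svop by 0.28. Of 23 tested genes for endocytosis and recycling, 0 were called. Ap2s1, a subunit of the AP-2 clathrin adaptor, read 0.83, 0.67 and 0.69 in TTX, -0.45, -0.39 and 0.70 at 15 min and 0.43, 0.87 and 0.49 at 45 min. Replicates 1 and 2 at 15 min stood below the rest (-0.78 ± 0.28, SE, limma adjusted p = 0.992). Both were on a slide with replicates 2 and 3 of the 45 min group (0.87 and 0.49), while replicate 3 at 15 min (0.70) was on another slide. A part of the slide in this was not tested. Picalm, a clathrin assembly protein, differed by -0.52 at 15 min, and Pacsin1, a membrane-bending protein, by -0.32 at 45 min and -0.52 between the times. The endophilin gene Sh3gl2 differed by -0.27 at 15 min, Ap2a2 by 0.29 and Ston2 by 0.30 at 45 min.

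Promoter windows from RefSeq (GRCr8 assembly, 250 bases before to 50 after the start) were at hand for 52 of the genes, 54 windows in all. The full cAMP response element (TGACGTCA, which reads the same on both strands) was in 2 of them, those of Vamp1 and Syn1, or 3.70%, against 1.83% of 33469 promoters. The AP-1 site (TGANTCA, both strands) was in 1, that of Syp (1.85% against 7.33%). The left part of the RE1 element bound by REST, a repressor of neuronal genes (TTCAGCACC, both strands), was in 1, that of Unc13a (1.85% against 0.356%). A MEF2 site (CTA and TAG with any 4 bases between, both strands) was in 0, against 3.84%. No motif holds another. The matches describe the letters of these windows and draw nothing about binding.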

How the data were processed

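Per the file headers, the deposited scanner files hold spot intensities of the Cy3 channel of Agilent rat arrays (design 014879). The software was Feature Extraction 9.5.3.1 (9.5 in the submitters' processing notes), and its processed signal is background-subtracted and detrended per array. The deposited value table holds the same intensities (largest difference 0). The labels' protocols give 500 ng of RNA per labelling.

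Control spots were left out, spots of a probe averaged, and log2 of the processed signal minus each array's 75th percentile was used (75th percentile signals 1456 to 2343). A probe was kept when well above background on all 3 arrays of a group, and a gene was read by its brightest kept probe. All 25808 features were fitted together with limma 3.58.1 (R 4.3.3), as 1 mean per group without covariates, two-sided, on 6 residual degrees of freedom. Calls needed a Benjamini-Hochberg adjusted p under 0.05. With 3 arrays a group, exact permutation reaches no p below 0.1, so it was not used. The fit was tested on simulated data. Of 85 probes, 71 matched RefSeq by accession.

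Genes were named by this rule: all members of 4 role lists, with full values for 17 of them (2 are not reported here), the 5 largest differences of each comparison, up to 5 genes whose probes disagreed, and up to 3 per partner list and comparison. The genes, lists and rules were chosen with earlier results of these data known. The deviations of same-numbered arrays from their group means correlated at 0.226 to 0.388 between TTX and 15 min. Between TTX and 45 min the range was 0.122 to 0.367, and between the times 0.0626 to 0.183. Arrays of other numbers gave -0.380 to 0.0883, -0.258 to -0.0422 and -0.200 to 0.0214 in the same order. Replicates 1 of TTX and of 45 min also share a slide. Whether the numbers mark paired cultures was not tested, since the labels give only numbers. The main fit did not pair the arrays. The number of arrays limits the precision.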

Additional observations from a re-analysis of the deposited data

How the results depend on the processing

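No release machinery gene was called under any of 21 settings per comparison (other scaling, background correction, filters, probe rules, spread estimates, slide as a block, a replicate block, or 1 array left out). Of 3963 recomputed differences, 348 changed sign, all of them uncalled, and the smallest limma adjusted p was 0.125. The replicate block left 0 of 63 called and changed no other call described for these genes. The median difference at 15 min was -0.18 with no scaling between arrays and 0.18 with normexp background correction, against 0.02, and at 45 min -0.19 with no scaling, against 0.07. Over all features these settings moved the medians to -0.15, 0.21 and -0.21. With 1 array left out, the median ranged from 0.01 to 0.08, from 0.02 to 0.10 and from -0.01 to 0.09, and the number of intervals within 1 log2 unit from 53 to 61, 56 to 58 and 55 to 60. Counts over all features moved more: from 2 to 8 at 15 min, 29 to 163 at 45 min and 18 to 187 between the times with 1 array left out, against 6, 52 and 34. The highest count came without replicate 3 of the 45 min group at 15 min and without its replicate 1 in the other comparisons. Without that replicate 1 the 45 min and TTX groups shared no slide. Release machinery genes at an unadjusted p under 0.05 numbered 0 to 2, 0 to 9 and 0 to 6 with 1 array left out, against 1, 0 and 3. The shares of all features then ranged from 1.63 to 5.68%, from 4.06 to 13.2% and from 3.82 to 14.1%. With slide as a fixed block 1, 0 and 2 release machinery genes had an unadjusted p under 0.05, against 3.31%, 2.57% and 6.48% of all features. The calls over all features, at an adjusted p under 0.05, were then 0, 22 and 25. Within slide 1 alone the median difference was 0.06 and 0.01. The count of intervals was added after the data were seen.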

Other observations

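The array holds 5 relatives of these genes under older or other names, which the name rule did not find, and RefSeq accessions identify them. Epim (syntaxin 2), Sybl1 (Vamp7), Bk (Syt17), RGD735194 (Snap47) and RGD1564654 (Syt16) all stood above background on 9 of 9 arrays. At 15 and 45 min they differed from TTX by 0.05 and 0.12, 0.05 and 0.05, 0.00 and 0.01, 0.09 and 0.07, and -0.32 and 0.01 log2 units. Syt16 read 0.19, 0.23 and 0.21 in TTX and 0.05, -0.39 and 0.02 at 15 min, below every TTX array (limma adjusted p = 0.992). None of the 5 was called.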
